A study of Homo sapiens with 15 samples.

Results

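Homologous recombination and the Fanconi anemia pathway were followed through 37 member genes, chosen by name as the core genes of these repair pathways. Every array probe whose RefSeq accession belongs to one of them was used, which gave 49 probes among the 30585 probes kept, or 37 of 25063 genes. The 25063 genes include array identifiers of probes without a gene name, each identifier counted as a gene. All 49 passed the filter on dim probes. To pass, a probe had to be marked as above background by the scanner's software in each of the 3 tumors of some construct. 29 members had 1 probe, 4 had 2, and 4 had 3, and a gene is given with all of its probes.

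Gene expression was measured on 15 single-color Agilent arrays of HCT116 xenograft tumors, 1 tumor per array and 3 independent tumors for each of 5 constructs. HCT116 is a human colon cancer cell line with its own MOAP-1 and RASSF1A, so every group carries the endogenous genes. It was transfected transiently with a plasmid before it was grown in athymic nude mice. The groups were Myc-tagged MOAP-1, an adaptor protein of the apoptosis pathway, MOAP-1 with a lysine changed to arginine (K264R or K278R), RASSF1A, a tumor suppressor that binds MOAP-1, and the empty vector. Tumors were excised at day 35. The paper reports expression in transiently transfected HCT116 cells in culture for a shorter time than that. Whether the excised tumors still carried the plasmid was not tested. The ages of the mice were not given in the sources used here.

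Homologous recombination repairs a DNA double-strand break by copying the sister chromatid. MRE11, RAD50, and NBN with RBBP8 trim the broken end, BRCA1 with its partner BARD1 recruits PALB2 and BRCA2, and further mediators such as XRCC2, XRCC3, and RAD52 act at the strand exchange that follows. In the Fanconi pathway a core complex of FANC proteins with the ubiquitin ligase FANCL and its partner UBE2T attaches ubiquitin to FANCD2 and FANCI at a DNA crosslink, and USP1 removes it. RecQ helicases and structure-specific nucleases take the joined DNA molecules apart. Many of these genes are transcribed mostly in S phase, when a sister chromatid is at hand.

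Values are log2 signals with the 75th percentile of each array set to 0, so 1 unit is a 2-fold difference and a negative level is a signal below that percentile. A level is given only against the same probe in other tumors. A change was called when limma's moderated test gave a Benjamini-Hochberg adjusted p below 0.05 over all probes together with at least a 1.5-fold difference, which is 0.58 on the log2 scale. Calling 1 probe was enough to call its gene.

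Arrays differed in brightness, with a 75th percentile of 496 to 1402 signal units, and from 85.1% to 93.1% of the spots of an array exceeded background. The MOAP1 probe rose by 0.86 in the MOAP-1 tumors, 0.55 in K264R, and 0.74 in K278R (adjusted p of limma 0.000842, 0.00939, and 0.00504), whereas the RASSF1 probe in the tumors labelled RASSF1A changed by -0.12 (adjusted p = 0.671). Where either probe lies relative to the transfected sequence was not given in the sources used here, so the RASSF1 probe does not check that label. The vector tumors shared slide 4 with RASSF1A tumor 3 and with no MOAP-1, K264R, or K278R tumor, so construct and slide cannot be told apart in those comparisons. MOAP-1 tumor 2 shared slide 2 with the K278R tumors. RASSF1A tumors 1 and 2 were on slide 5, which was scanned on a later day. Of 15 genes of colon epithelium, 14 were kept and were above background on all arrays, CDH17 being the exception. In bulk tumors, fewer cells of a type and less RNA per cell cannot be told apart.

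Against vector, between 4 and 6 of the 37 members were called with each MOAP-1 construct and 0 with RASSF1A. The F test over the 4 contrasts against vector called 14 of 37 members, which is 37.8% beside 47.6% of all genes, and this count was 9 without RASSF1A tumor 2 and 8 with scan day as a block. In MOAP-1 tumors 4 members were higher than in vector tumors and 0 were lower, which is 10.8% and 0% of members beside 11.5% and 7.83% of all genes. K264R gave 5 higher and 1 lower, 13.5% and 2.7% of members, where 10.7% of all genes were called higher and 12% lower. K278R gave 4 higher and 0 lower, 10.8% and 0% of members beside 9.07% and 3.82% of all genes, and the count was 2 without K278R tumor 3 or without vector tumor 2. With an adjusted p under 0.05 and no fold threshold, 8 members passed in MOAP-1, 11 in K264R, and 7 in K278R, where 34.2%, 38.9%, and 23.7% of all genes did. These 3 comparisons share the vector tumors. The median change over the 49 member probes was 0.03 in MOAP-1, 0.04 in K264R, and 0.02 in K278R, beside 0.02, -0.05, and 0.06 over all probes. The median size of a change, without its sign, was 0.18 for member probes and 0.28 for all probes in MOAP-1 against vector. The lowest change of a member probe in that comparison was -0.36, for RECQL.

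**Figure D1:**
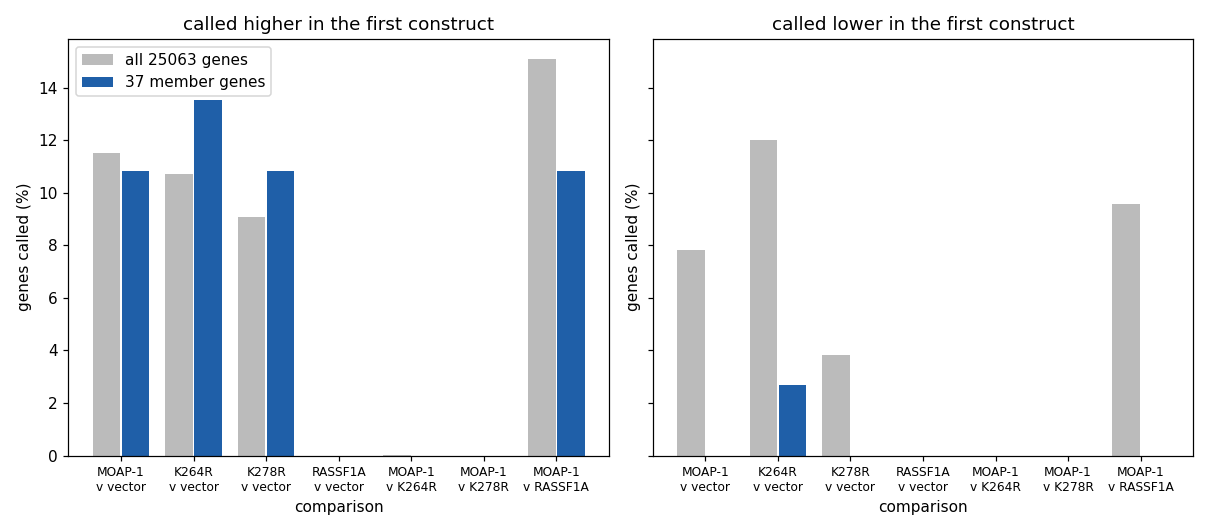
Percentage of genes called (y axis) in each comparison (x axis), higher in the first construct at left and lower at right, for all 25063 genes (gray) and the 37 members (blue). For higher calls members stood at 10.8% beside 11.5% in MOAP-1 against vector and 13.5% beside 10.7% in K264R against vector, and 1 member was called lower, in K264R against vector.

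The genes called in MOAP-1 tumors were BARD1, PALB2, FANCD2, and RECQL5, the last on a dim probe that passed the filter only through these tumors. BARD1 forms the ubiquitin ligase heterodimer with BRCA1. Its probe A_23_P67771 read -2.90, -2.89, and -2.86 in the vector tumors and -2.12, -2.07, and -2.17 in the MOAP-1 tumors. It read -2.07, -2.33, and -2.25 in K264R, -2.45, -2.62, and -2.31 in K278R, and -2.86, -3.05, and -2.90 in the tumors labelled RASSF1A. All 9 tumors with a MOAP-1 construct lay above all 6 others. BARD1 was 1.69-fold higher in MOAP-1 than in vector tumors (log2 0.76, SE 0.10, adjusted p = 0.000283) and 1.58-fold higher in K264R (log2 0.66, adjusted p = 0.000356). In K278R the change was 0.42 (adjusted p = 0.0127), under the fold threshold.

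PALB2 links BRCA1 to BRCA2. Its probe A_23_P129569 read -2.79, -2.74, and -2.85 in the vector tumors, -2.07, -2.06, and -2.19 with MOAP-1, and -2.10, -2.12, and -2.13 with K264R. It read -2.56, -2.49, and -2.20 with K278R and -2.81, -2.46, and -2.92 in the tumors labelled RASSF1A. MOAP-1 and K264R tumors were all above the vector tumors, and RASSF1A tumor 2 reached the level of the K278R tumors. The change was 0.69 in MOAP-1 (SE 0.12, adjusted p = 0.00138), 0.68 in K264R (adjusted p = 0.00113), and 0.38 in K278R (adjusted p = 0.0438, not called). Quantile normalization put the MOAP-1 change under 1.5-fold (0.57).

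The other members that work beside these 2 proteins were BRCA1, BRCA2, and the helicase BRIP1. BRCA1 A_23_P207400, a mean of 10 spots, rose by 0.26 in MOAP-1 (adjusted p = 0.0381) and 0.54 in K264R (adjusted p = 0.000594), both under 1.5-fold, and its change in K278R was 0.19 (adjusted p = 0.138). BRCA2 changed by 0.43 in MOAP-1 (adjusted p = 0.0152), 0.28 in K264R (adjusted p = 0.0817), and 0.27 in K278R (adjusted p = 0.12). BRIP1 read -0.11, -0.12, and -0.05 in the same order. Over the 5 genes of this group, 2 were called in MOAP-1 and in K264R and 0 in K278R. Of all genes, 11.5%, 10.7%, and 9.07% were called higher in MOAP-1, K264R, and K278R against vector.

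FANCD2 is the protein that the Fanconi core complex marks with ubiquitin. Its 3 probes differed. Probe A_23_P143994 read -1.51, -1.81, and -1.37 in the vector tumors, -0.77, -0.79, and -0.77 with MOAP-1, and -0.81, -0.62, and -0.77 with K264R. It read -1.08, -0.87, and -0.92 with K278R and -1.58, -1.66, and -1.34 in the tumors labelled RASSF1A. The 9 tumors with a MOAP-1 construct all lay above the other 6. The change was 0.79 in MOAP-1 (SE 0.12, adjusted p = 0.000604), 0.83 in K264R (adjusted p = 0.00029), and 0.61 in K278R (adjusted p = 0.00583). The K278R call was lost without K278R tumor 2 (0.57) or vector tumor 2 (0.49), and in 6 of 12 other settings, in which the change went down to 0.18.

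Probe A_23_P345678 of FANCD2 was dim, above background in 1 of 3 vector tumors and in all tumors of the other groups. It read -6.80, -6.88, and -6.39 in vector, -6.48, -6.21, and -5.64 in MOAP-1, and -6.22, -5.62, and -5.83 in K264R. It read -5.80, -5.74, and -6.04 in K278R and -6.16, -5.97, and -6.10 in RASSF1A. The highest vector value was above the lowest MOAP-1 value and below all K264R, K278R, and RASSF1A values. Its change was 0.58 in MOAP-1 (adjusted p = 0.0516, not called), 0.80 in K264R (adjusted p = 0.0102), 0.83 in K278R (adjusted p = 0.0162, not held without vector tumor 2), and 0.61 in RASSF1A (adjusted p = 0.348). The third probe, A_33_P3257808, changed by 0.16, -0.03, 0.12, and 0.22 in the same order, and its vector tumors (-0.94, -0.91, and -1.13) overlapped all other groups. Probes A_23_P143994 and A_33_P3257808 are annotated to the same RefSeq transcript, and A_23_P345678 to another. Which further transcripts each probe detects was not given in the sources used here.

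FANCI, the partner of FANCD2, changed by -0.22 in MOAP-1 (adjusted p = 0.0976), -0.30 in K264R (adjusted p = 0.0301, under 1.5-fold), and -0.26 in K278R (adjusted p = 0.0676). USP1, the deubiquitinase, changed by -0.01, 0.26, and 0.15, with adjusted p of 0.951, 0.152, and 0.443. FANCD2 was thus the 1 gene of 3 in this group that was called, where 11.5%, 10.7%, and 9.07% of all genes were called higher in these comparisons.

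RECQL5, a RecQ helicase, had the largest change of any member, on a probe near background. Probe A_23_P324989 was above background in 0 of 3 vector tumors, 0 of 3 tumors labelled RASSF1A, 3 of 3 MOAP-1 tumors, and 2 of 3 in K264R and in K278R. It read -8.23, -8.75, and -7.27 in vector, -6.10, -5.60, and -6.12 in MOAP-1, and -7.06, -6.47, and -6.79 in K264R. It read -5.49, -6.57, and -6.14 in K278R and -7.96, -7.89, and -7.85 in RASSF1A. All 9 tumors with a MOAP-1 construct lay above the other 6. The measured means of MOAP-1 and vector were -5.94 and -8.08, a difference of 2.15 (SE 0.33, adjusted p = 0.000609). Because the vector tumors were not above background, the fold was taken against the lowest signal that counted as above background on each array. On that scale RECQL5 was 1.54-fold higher in MOAP-1. This is no strict lower limit, because all 3 K264R tumors read over that signal on their arrays though 1 was not above background. The measured change was 2.02 in K278R (adjusted p = 0.00289) and 1.31 in K264R (adjusted p = 0.00862). Against the lowest signal above background on the vector arrays, K278R was 1.41-fold higher and K264R stood at -0.21 as log2. Neither reached 1.5-fold on that scale, and 1 tumor of each was itself not above background. This probe passed the filter on dim probes only through the MOAP-1 tumors, so its call there is not independent of the filter. The study also picked it for its list of changed genes on these same tumors, so its direction is not independent evidence.

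The other RECQL5 probes exceeded background in every tumor and were not called. A_23_P332042 read -1.80, -2.29, and -1.88 in vector, -1.59, -1.61, and -1.61 in MOAP-1, and -1.36, -1.49, and -1.56 in K278R, with changes of 0.39 (adjusted p = 0.0641) and 0.52 (adjusted p = 0.0271, under 1.5-fold). A_33_P3268974 changed by -0.06 in MOAP-1, -0.09 in K264R, and -0.05 in K278R, with adjusted p of 0.712, 0.522, and 0.74. Of the other RecQ helicases, BLM, which resolves double Holliday junctions, changed by -0.17 in MOAP-1 (adjusted p = 0.112) and -0.32 in K278R (adjusted p = 0.014, under 1.5-fold). WRN changed by 0.17, 0.12, and 0.16 in MOAP-1, K264R, and K278R, and RECQL4 by -0.11, -0.13, and 0.02, with no adjusted p under 0.05. The 2 probes of RECQL changed by -0.24 and -0.36 in MOAP-1, with adjusted p of 0.144 and 0.0756.

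**Figure D2:**
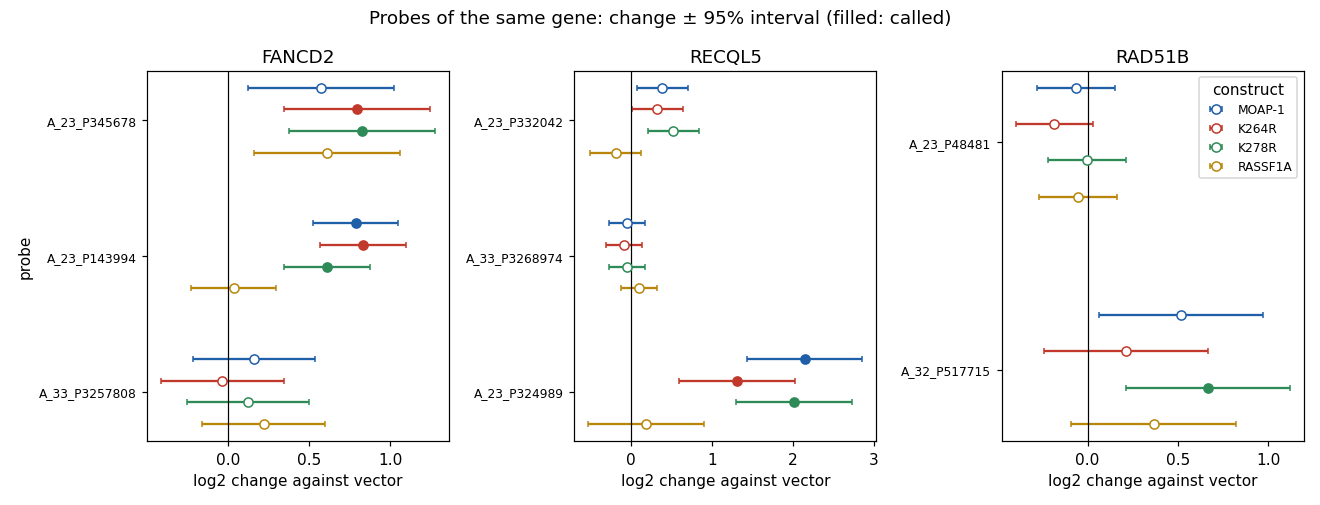
log2 change against vector (x axis) with its 95% interval for each probe (y axis) of FANCD2, RECQL5, and RAD51B, colored by construct and filled where called. Probes of the same gene differed, and the dim probes FANCD2 A_23_P345678, RECQL5 A_23_P324989, and RAD51B A_32_P517715 had the widest intervals of their genes. Their called changes turned negative under the normexp background correction.

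The calls in MOAP-1 depended on the background correction, also on probes above background in every tumor. Under the normexp model none of the 4 genes was called, and the direction turned for BARD1 (-0.46), PALB2 (-0.24), and RECQL5 A_23_P324989 (-1.60), while FANCD2 A_23_P143994 was at 0.32. BARD1 also turned in K264R (-0.040). That model put the median of all probes at -0.53 in MOAP-1 against vector. The share of all genes called under it is not given here, so the lost calls are not shown to be particular to the members. With the spots of extreme local background left out as well, that median stood at -0.16, BARD1 and PALB2 were higher but under 1.5-fold (0.27 and 0.40), and FANCD2 A_23_P143994 was called in MOAP-1 and in K264R. RECQL5 A_23_P324989 then stood at -0.29 in MOAP-1, -0.76 in K264R, and -0.22 in K278R.

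The promoters of the 4 genes called in MOAP-1 tumors are shown because these genes rose on the same arrays. Each runs from 250 bases before to 50 bases after the RefSeq transcription start, on the strand of the gene, in build GRCh38.p14. BARD1 lies at chr2:214809634-214809933 on the minus strand, PALB2 at chr16:23641261-23641560 on the minus strand, FANCD2 at chr3:10026187-10026486 on the plus strand, and RECQL5 at chr17:75667105-75667404 on the minus strand. Capitals mark matches to the words searched on both strands, which were TTTCCCGC, TTTCGCGC, TTTGCCGC, and TTTGGCGC for E2F, CCGGAAGT for ETS factors, CCAAT, and TTTGAA, the cell cycle homology region.
BARD1: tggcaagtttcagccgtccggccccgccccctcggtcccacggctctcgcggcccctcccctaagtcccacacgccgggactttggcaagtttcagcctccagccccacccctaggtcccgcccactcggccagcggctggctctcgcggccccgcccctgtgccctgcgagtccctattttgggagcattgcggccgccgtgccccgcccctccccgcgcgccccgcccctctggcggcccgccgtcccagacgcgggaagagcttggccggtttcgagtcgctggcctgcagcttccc
PALB2: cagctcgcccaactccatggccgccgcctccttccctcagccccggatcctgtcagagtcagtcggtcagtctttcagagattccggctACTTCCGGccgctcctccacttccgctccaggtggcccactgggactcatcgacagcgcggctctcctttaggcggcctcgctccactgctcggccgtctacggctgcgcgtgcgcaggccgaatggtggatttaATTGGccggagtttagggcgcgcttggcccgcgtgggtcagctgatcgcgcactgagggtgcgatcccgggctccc
FANCD2: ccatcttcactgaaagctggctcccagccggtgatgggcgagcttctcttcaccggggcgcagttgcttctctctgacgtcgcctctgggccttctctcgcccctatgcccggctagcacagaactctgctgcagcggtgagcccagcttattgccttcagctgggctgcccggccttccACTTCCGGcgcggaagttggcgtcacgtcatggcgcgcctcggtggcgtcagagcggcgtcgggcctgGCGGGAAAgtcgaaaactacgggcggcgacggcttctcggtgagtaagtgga
RECQL5: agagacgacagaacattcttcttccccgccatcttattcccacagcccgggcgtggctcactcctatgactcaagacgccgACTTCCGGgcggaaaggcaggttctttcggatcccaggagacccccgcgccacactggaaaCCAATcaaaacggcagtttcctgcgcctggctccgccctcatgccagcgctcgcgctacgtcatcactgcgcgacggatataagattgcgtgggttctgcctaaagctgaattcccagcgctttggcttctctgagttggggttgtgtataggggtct

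An ETS word began 70 bases before the start in FANCD2, 161 bases before it in PALB2, and 169 bases before it in RECQL5. FANCD2 also held an E2F word across its start site, PALB2 and RECQL5 held CCAAT, and BARD1 held none of the words. Promoters of 32 members were in the table, 42 in all because some genes have several. An ETS word stood in 9 of the 42 and in 4.14% of all 35116 promoters, an E2F word in 5 of the 42 and in 3.31% of all, CCAAT in 17 of the 42 and in 34.6% of all, and TTTGAA in 4 of the 42 and in 15.2% of all. The E2F words can overlap one another, and a promoter was counted once. A match is a description of the sequence and no measure of binding.

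Among the genes of end resection, NBN A_24_P278126 read -2.06, -1.85, and -1.78 in vector, -0.75, -1.29, and -0.74 in K264R, and -1.32, -1.49, and -1.64 in MOAP-1. It read -1.69, -1.93, and -0.81 in K278R and -1.56, -1.70, and -1.59 in RASSF1A. K264R tumors were above all vector and MOAP-1 tumors, and K278R tumor 3 stood at the K264R level while the other K278R tumors did not. NBN rose by 0.97 in K264R (SE 0.24, adjusted p = 0.00653). The change in MOAP-1 was 0.41 (adjusted p = 0.196).

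MRE11, the nuclease that NBN binds, was lower in K264R, with values of -2.96, -3.05, and -2.82 against -2.33, -2.17, and -2.56 in vector. These groups did not overlap, and the change was -0.59 (adjusted p = 0.0078), at the fold threshold. It went under that threshold without K264R tumor 1 (-0.58), K264R tumor 2 (-0.53), vector tumor 1 (-0.58), or vector tumor 2 (-0.50). RAD50, the third protein of that complex, rose by 0.31 in MOAP-1 (adjusted p = 0.0394) and 0.46 in K264R (adjusted p = 0.0046), under 1.5-fold in each. RBBP8 changed by 0.10 in MOAP-1 and 0.05 in K264R, with adjusted p of 0.641 and 0.839.

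Of the 8 mediators of strand exchange, XRCC2 and RAD51B were called, and only in K278R against vector, where 9.07% of all genes were called higher. XRCC2 A_33_P3241190 read 0.14, 0.01, and -0.05 in vector, 0.66, 0.49, and 0.76 in K278R, 0.44, 0.29, and 0.72 in MOAP-1, and 0.22, 0.17, and 0.32 in K264R. All 9 tumors with a MOAP-1 construct were above the vector tumors. The change was 0.60 in K278R (adjusted p = 0.00477), 0.45 in MOAP-1 (adjusted p = 0.0103, under 1.5-fold), and 0.20 in K264R (adjusted p = 0.186). The K278R call was lost without K278R tumor 3 (0.54) or vector tumor 3 (0.56).

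RAD51B A_32_P517715 was dim, above background in 1 of 3 vector tumors, and read -7.05, -6.60, and -5.98 there. It read -5.69, -6.09, and -5.85 in K278R, so that the groups overlapped, and the change was 0.66 (adjusted p = 0.041). It read -6.15, -6.01, and -5.92 in MOAP-1, -6.59, -6.21, and -6.18 in K264R, and -6.20, -6.19, and -6.15 in RASSF1A. The call was lost without K278R tumor 1 (0.57), K278R tumor 3 (0.65), vector tumor 1 (0.41), or vector tumor 2 (0.64). The other RAD51B probe, A_23_P48481, changed by -0.0021 in K278R (adjusted p = 0.99). The remaining members of this group, RAD51C, RAD51D, XRCC3, RAD52, RAD54L, and RAD54B, had changes between -0.25 and 0.35 in the 3 comparisons with vector, and 1 of their probes had an adjusted p under 0.05, RAD51D A_23_P500873 in K264R (0.35, adjusted p = 0.0353).

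**Figure D3:**
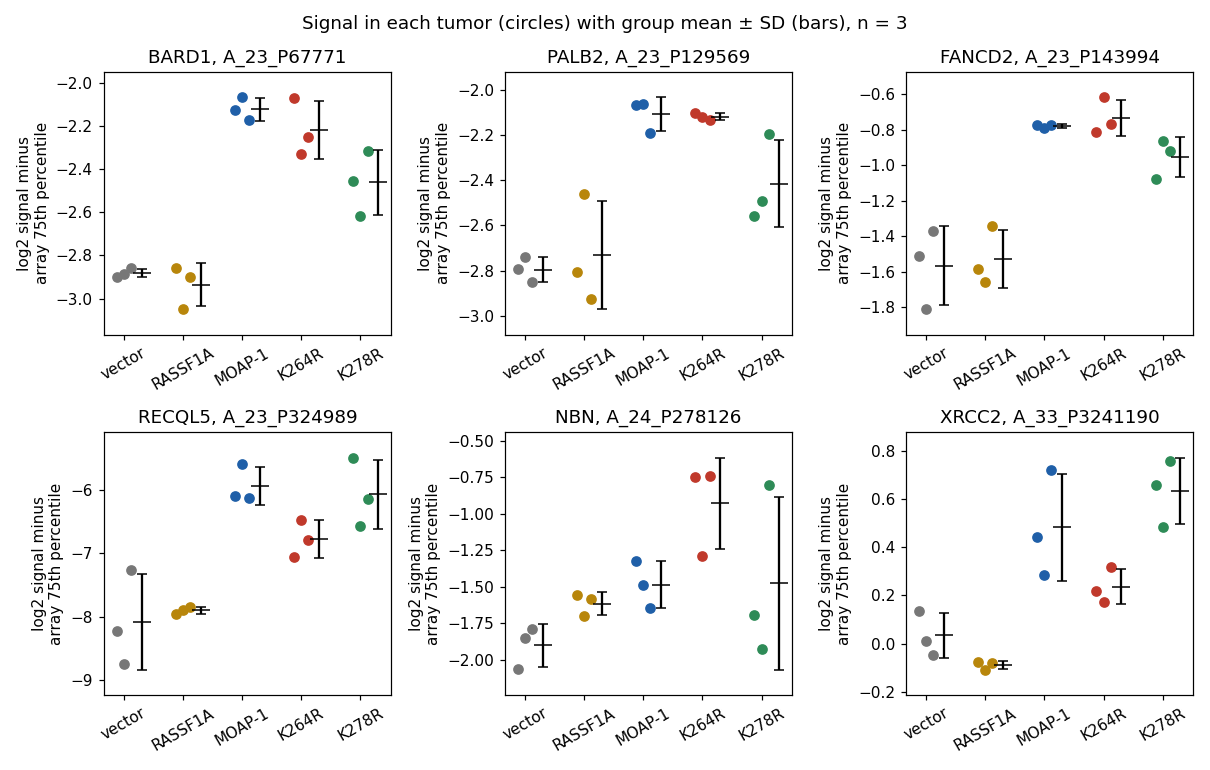
log2 signal minus the array 75th percentile (y axis) in each tumor (circles) of the 5 constructs (x axis) for 6 member probes, with the group mean and SD (bars, n = 3). BARD1, FANCD2 A_23_P143994, and the dim RECQL5 probe were higher in all 9 tumors with a MOAP-1 construct than in the other 6, the mean of NBN was highest in K264R, and that of XRCC2 in K278R. Under the normexp background correction the direction turned for BARD1 in MOAP-1 and K264R, for PALB2 in MOAP-1, and for RECQL5 in all 3 MOAP-1 constructs.

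The Fanconi core complex and the nucleases held no called gene in any comparison. In MOAP-1 against vector 11.5% of all genes were called higher and 7.83% lower. The 8 genes grouped with the core complex were FANCA, FANCC, FANCE, FANCF, FANCG, FANCL, FANCM, and UBE2T, the partner of FANCL. Their 12 probes had a median change of -0.07 in MOAP-1 against vector and a range of -0.24 to 0.34. In K264R the range was -0.26 to 0.38 and in K278R -0.28 to 0.22. UBE2T had the highest value in K264R, at 0.38 (adjusted p = 0.0201, under 1.5-fold). The 3 probes of FANCA, a core complex subunit, changed by 0.16, 0.31, and 0.34 in MOAP-1, with adjusted p of 0.43, 0.106, and 0.0724.

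The nucleases MUS81, EME1, and GEN1, which cut branched DNA, and SLX4, the scaffold that holds some of them, ranged from -0.18 to 0.28 in MOAP-1 against vector. MUS81 was the highest, at 0.28 (adjusted p = 0.129). EME1, the partner of MUS81, read -0.09 in vector tumor 1 and -1.40 and -1.51 in the other vector tumors, while all 12 tumors of the other groups lay between -1.55 and -1.08. SLX4 read -2.47 in K278R tumor 2 and between -1.99 and -1.39 in the other 14 tumors. Both probes had 1 spot on each array.

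**Figure D4:**
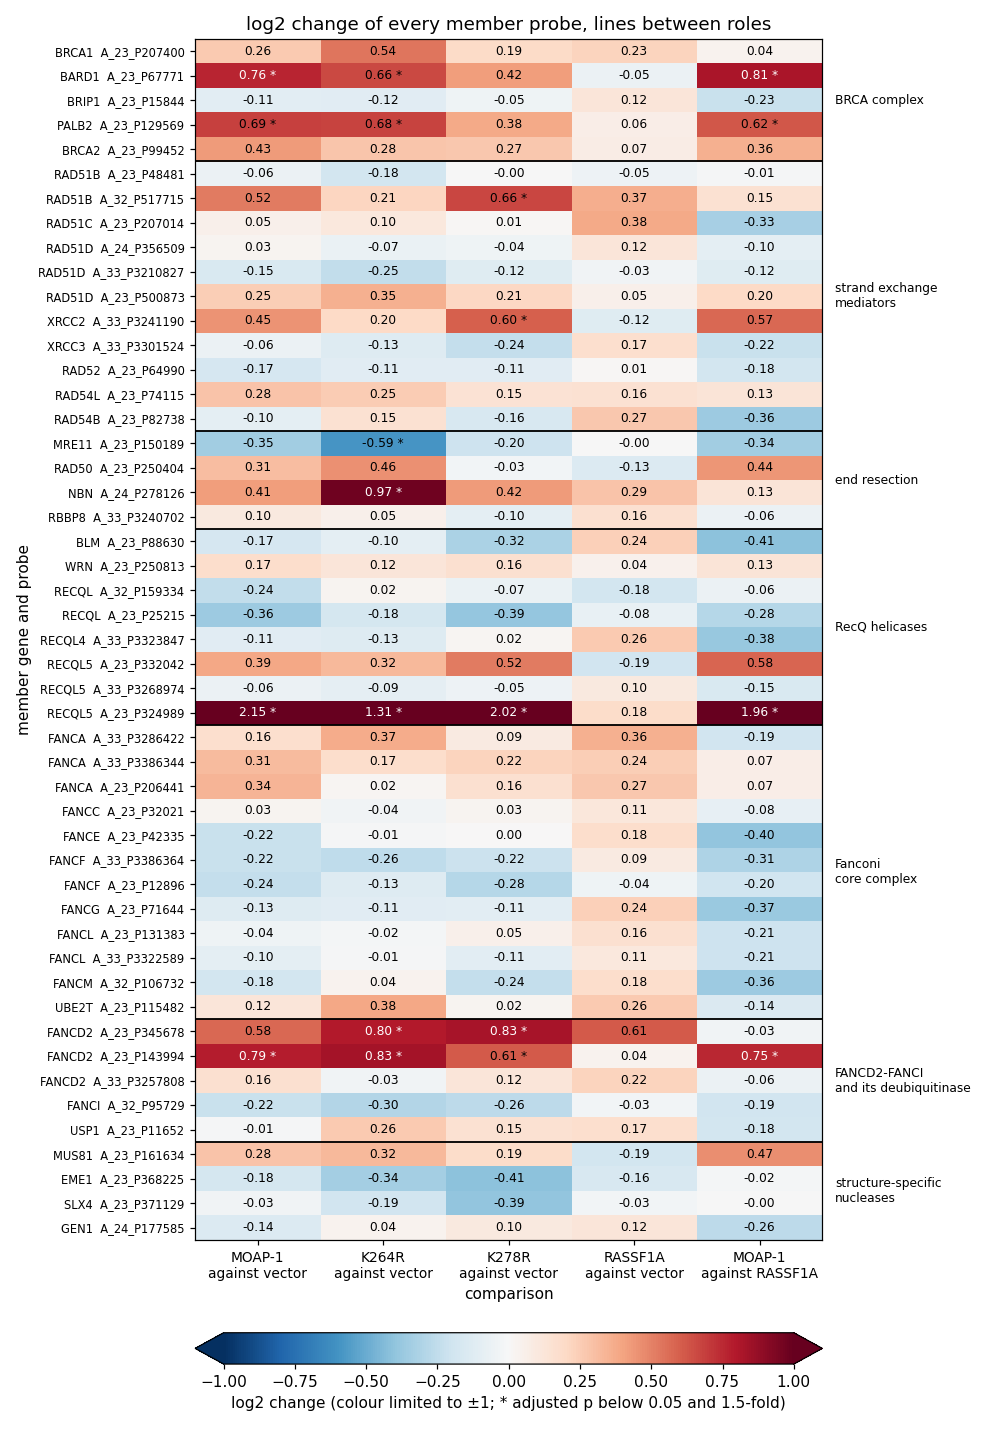
log2 change of each of the 49 member probes (rows, grouped by role, lines between roles) in 5 comparisons (columns), with color from blue (lower) to red (higher) and an asterisk at each call. Calls stood in the BRCA, strand exchange mediator, end resection, RecQ, and FANCD2 groups, and the Fanconi core complex and the nucleases held 0 of them. Of all genes, 11.5% were called higher and 7.83% lower in MOAP-1 against vector. Under the normexp background correction the calls of RECQL5, RAD51B, and FANCD2 A_23_P345678, on dim probes, turned in direction, as did those of BARD1 in MOAP-1 and K264R and of PALB2 in MOAP-1 against vector.

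RASSF1A and vector tumors were compared to ask whether the partner of MOAP-1 changed the same genes. limma called 0 members and 0 genes of the whole array in each direction (0% of all genes). An unadjusted p under 0.05 with 1.5-fold gave 1 member and 4.41% of all genes by limma. On that rule the methods' t-test gave 1 member and 186 of 25063 genes. The member was FANCD2 A_23_P345678, at 0.61. Without the fold, 7 members and 14.2% of all genes had an unadjusted p under 0.05 by limma. For 40 of the 49 probes the 95% interval of the change lay inside 1.5-fold in both directions. BARD1 changed by -0.05, with an interval of -0.27 to 0.16, and PALB2 by 0.06, with an interval of -0.20 to 0.33. 35 of 49 changes were above 0, with a median of 0.12 beside 0.02 for all probes. RASSF1A tumor 3, which shared slide 4 with the vector tumors, differed from their mean by a median of 0.09 over the member probes, with no test.

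MOAP-1 and the tumors labelled RASSF1A were compared directly. 4 members were higher in MOAP-1 and 0 were lower, beside 15.1% and 9.58% of all genes. They were RECQL5 A_23_P324989, with a measured difference of 1.96 (adjusted p = 0.000601), BARD1 at 0.81 (adjusted p = 7.75e-05), FANCD2 A_23_P143994 at 0.75 (adjusted p = 0.00044), and PALB2 at 0.62 (adjusted p = 0.00161). The RECQL5 probe passed the filter only through the MOAP-1 tumors. Against the lowest signal above background in the RASSF1A arrays it was 2.21-fold higher, which is no strict lower limit. PALB2 lost its call without RASSF1A tumor 3 (0.53). Under normexp RECQL5 turned to -0.061, and BARD1 (0.45) and PALB2 (0.43) were under 1.5-fold. The values of each tumor are those given above. With no fold threshold 12 members had an adjusted p under 0.05, beside 41.2% of all genes. Among those under 1.5-fold, and so not called, XRCC2 (0.57, adjusted p = 0.0017), RAD50 (0.44, adjusted p = 0.00489), MUS81 (0.47, adjusted p = 0.0154), BRCA2 (0.36, adjusted p = 0.0288), and the probe A_23_P332042 of RECQL5 (0.58, adjusted p = 0.00793) had positive differences. BLM (-0.41, adjusted p = 0.00134), FANCG (-0.37, adjusted p = 0.0106), RAD54B (-0.36, adjusted p = 0.0381), and RAD51C (-0.33, adjusted p = 0.035) had negative ones. The median over member probes was -0.08, beside -0.01 over all probes.

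The lysine changes were asked to separate the mutants from MOAP-1, and few differences stood out. In MOAP-1 against K264R limma called 0 members, beside 0.00399% of all genes higher and 0% lower. An unadjusted p under 0.05 with 1.5-fold gave 1 member by limma, beside 2.59% of all genes. On that rule the methods' t-test gave 1 member, beside 310 of 25063 genes. Without the fold, 7 members and 12.8% of all genes had an unadjusted p under 0.05 by limma. The member past both was RECQL5 A_23_P324989, at 0.84 (95% interval 0.12 to 1.55, adjusted p = 0.417). NBN was at -0.56 (interval -1.07 to -0.05, adjusted p = 0.44), and BRCA1 at -0.27 (interval -0.46 to -0.08, adjusted p = 0.374). For BARD1 the difference was 0.10 (interval -0.12 to 0.31) and for PALB2 0.01 (interval -0.25 to 0.28). For 43 of 49 probes the interval lay inside 1.5-fold. With array weights, RECQL5 A_23_P324989 and NBN were called, and the share of all genes called there is not given here.

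In MOAP-1 against K278R limma called 0 members and 0% of all genes in each direction. An unadjusted p under 0.05 with 1.5-fold gave 0 members by limma, beside 1.58% of all genes. On that rule the methods' t-test gave 0 members, beside 143 of 25063 genes. Without the fold, 4 members and 10.9% of all genes had an unadjusted p under 0.05 by limma. BARD1 was 0.34 higher in MOAP-1 (interval 0.12 to 0.56, adjusted p = 0.448), PALB2 0.31 higher (interval 0.04 to 0.57, adjusted p = 0.487), and RAD50 0.34 higher (interval 0.11 to 0.56, adjusted p = 0.465). On slide 2, MOAP-1 tumor 2 was above the mean of the K278R tumors by 0.39 in BARD1 and 0.35 in PALB2, values with no test. The interval lay inside 1.5-fold for 44 of the 49 probes.

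The wider pathway was followed with 49 other genes of homologous recombination and the Fanconi pathway, of which 48 had a kept probe. In MOAP-1 against vector 9 of the 48 were higher and 3 lower, beside 11.5% and 7.83% of all genes. In K264R 7 were higher and 2 lower, beside 10.7% and 12%, in K278R 3 were higher and 1 lower, beside 9.07% and 3.82%, and in RASSF1A 0 were called. Those with the largest changes in MOAP-1 were RAD51AP1, which promotes the pairing of DNA strands (1.47, adjusted p = 0.000878), FAAP24, a core complex subunit (1.42, adjusted p = 0.0445), and 1 of 4 probes of FAAP20, which protects FANCA (-1.11, adjusted p = 0.000324), whose other probes changed by 0.02, -0.06, and -0.49 and were not called. FIGNL1, an AAA ATPase of recombination, rose by 0.97 (adjusted p = 0.00756), and PSMC3IP, a cofactor of strand exchange, by 0.82 (adjusted p = 0.000378). A probe of BRCC3, a deubiquitinase of the BRCA1-A complex, fell by 0.71 (adjusted p = 0.0262) while its other probes changed by 0.06 and -0.19. A probe of RPA2, a subunit of the single-strand binding protein, rose by 0.69 (adjusted p = 0.00129) while the other changed by 0.23 (adjusted p = 0.0643). FANCB, a core subunit, rose by 0.65 (adjusted p = 0.0344).

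Markers of proliferating cells moved with the same constructs. Of 32 such genes, 11 were higher and 0 lower in MOAP-1 against vector, 15 higher in K264R, 7 higher in K278R, and 0 in RASSF1A, where 11.5%, 10.7%, 9.07%, and 0% of all genes were called higher. TOP2A, AURKB, and PCNA of this list were also picked by the study on these tumors, so they are not independent evidence of its direction. The mean level of the list ran from 0.49 to 0.60 in the vector tumors, 0.93 to 0.96 in MOAP-1, 1.02 to 1.13 in K264R, 0.68 to 0.83 in K278R, and 0.59 to 0.71 in RASSF1A. The part of these markers in the rise of BARD1, PALB2, and FANCD2 was not tested. The mean level of the 37 members ran from -0.82 to -0.77 in vector, -0.75 to -0.70 in MOAP-1, -0.72 to -0.71 in K264R, -0.82 to -0.75 in K278R, and -0.74 to -0.65 in RASSF1A.

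Markers of other cells were uneven between tumors. The host was a mouse and the probes carry names of human genes. Whether these probes read mouse RNA or RNA of the HCT116 cells was not tested. The 11 kept genes of 15 for stromal fibroblasts had mean levels of -3.41 to -1.37 in vector, -2.32 to 0.01 in MOAP-1, -2.50 to -1.07 in K264R, -1.34 to -0.11 in K278R, and -1.74 to -1.16 in RASSF1A, and 2 of 11, COL1A1 and DCN, were called higher in MOAP-1 against vector, beside 11.5% of all genes. COL6A3, FBN1, LUM, and POSTN did not pass the filter. In the same comparison 1 of 9 endothelial genes, TIE1, was higher, and of 10 leukocyte genes PTPRC was higher (0.72) and TYROBP lower (-1.70), where 7.83% of all genes were called lower. The mean level of the leukocyte list ran from -0.18 to 0.18 in vector and -0.35 to -0.10 in MOAP-1, and that of the endothelial list from -3.18 to -2.86 and -3.02 to -2.34. Their part in the members' values was not tested.

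**Figure D5:**
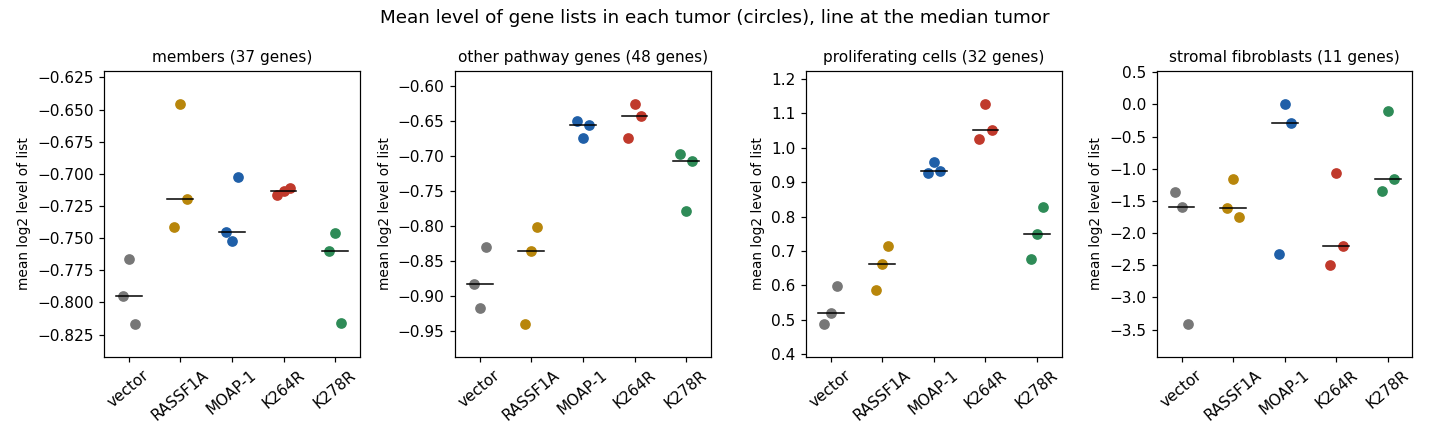
Mean log2 level (y axis) of the members, the other pathway genes, the proliferation markers, and the stromal fibroblast markers in each tumor (circles) by construct (x axis), at the brightest probe of each gene, with a line at the median of each construct. The proliferation markers lay between 0.93 and 0.96 in MOAP-1 and 0.49 and 0.60 in vector, while the members lay closer together, from -0.75 to -0.70 and from -0.82 to -0.77.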

How the data were processed

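The members and gene lists were chosen with earlier results of these data known. Per the methods, tumors gave RNA with an integrity number above 7. The authors deposited, for each array, the spot intensity after background correction by Agilent Feature Extraction (version 9.1 in the submitters' notes, 10.5.1.1 in the file headers), not normalized between arrays. They also deposited a log2 table from GeneSpring, used as an alternative only, since 7 of its 15 columns follow another array of the same construct. Here intensities were log2-transformed without outlier spots, the 75th percentile was set to 0, and spots of a probe were averaged (34127 probes). Probes were named through RefSeq accessions (74.5%), and the others were counted as genes under their array identifiers. All 15 arrays were fitted by construct with limma 3.58.1 in R 4.3.3 (lmFit, eBayes, 10 residual degrees of freedom), which was tested on simulated data. Values in every tumor are given for members called in MOAP-1 against vector and for the 4 largest changes called in each other comparison, with all probes of genes that have several. MRE11 and XRCC2, also called, were added after their values were seen. Of the other pathway genes, the 8 largest called in MOAP-1 against vector are named. The number of tumors limits the precision. Intervals are at 95% and not adjusted. Alternatives were quantile normalization, normexp background (offset 50, on the median signal), other filters, array weights, blocks, 1 probe per gene, the methods' t-test, and leaving out each tumor.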

Additional observations from a re-analysis of the deposited data

Results flagged for a closer look

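Members whose levels differed between MOAP-1 and the tumors labelled RASSF1A by the direct test of limma are BARD1 (log2 difference 0.81, higher in 3 of 3 MOAP-1 tumors than in all RASSF1A tumors), PALB2 (0.62), FANCD2 A_23_P143994 (0.75), and RECQL5 A_23_P324989 (1.96 as measured on a dim probe, but -0.061 under normexp). The RECQL5 probe passed the filter only through the MOAP-1 tumors. Against the lowest signal above background it was 2.21-fold higher. RASSF1A tumors 1 and 2 were on a slide and a scan day of their own. With scan day as a fixed block, FANCD2 changed by 0.57 and went under 1.5-fold.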

How the results depend on the processing

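Quantile normalization left 2 members called in K278R against vector, and the filter on all 15 arrays left 2. The replicate block, with the tumor number as a block, gave 4 members in MOAP-1 against vector and changed none of the 20 calls of single probes. The slide as a random block changed none of them either, with an estimated slide correlation of -0.08. No tumor with a MOAP-1 construct shared a slide with the vector tumors, so that block cannot separate slide from construct against vector. Nothing in the labels pairs same-numbered tumors, and the 30 such pairs deviated with r from -0.25 to 0.37 (median 0.11, against -0.04 for other pairs), with 9 of 15 tumors closest to their own number, which is a hint from the data and not the design. The methods' t-test after Benjamini-Hochberg gave 0 members and 0 of all genes in K278R against vector. At an unadjusted p with 1.5-fold it gave 1 member in RASSF1A against vector, beside 186 of 25063 genes. In MOAP-1 against K264R it gave 1, beside 310 of 25063 genes, and array weights gave 2 there. With 1 probe per gene, 2 members were called in MOAP-1 against vector, 1 in K278R against vector, and 2 in MOAP-1 against RASSF1A. Shares of all genes called are not given here for quantile normalization, the filter on all 15 arrays, 1 probe per gene, or normexp. Those member counts alone do not show a loss particular to the members. With scan day as a block, the F test called 8. Without the fold threshold the counts were 8, 11, and 7 for MOAP-1, K264R, and K278R against vector and 12 for MOAP-1 against RASSF1A, where 34.2%, 38.9%, 23.7%, and 41.2% of all genes passed. With each tumor left out in turn, counts ran from 9 to 17 for the F test (9 without RASSF1A tumor 2), 4 to 5 for MOAP-1, 5 to 6 for K264R, and 2 to 4 for K278R against vector (2 without K278R tumor 3 or vector tumor 2), and 3 to 5 for MOAP-1 against RASSF1A, with 0 in the other comparisons. Normexp background called 1 member in the F test and 0 in the comparisons with vector and with RASSF1A, and it put the median of all probes at -0.53 in MOAP-1, -0.31 in K264R, and -0.47 in K278R against vector. Changes turned to -0.46 (BARD1, MOAP-1), -0.040 (BARD1, K264R), -0.24 (PALB2, MOAP-1), -1.60, -0.90, and -1.53 (RECQL5 A_23_P324989, MOAP-1, K264R, K278R), -0.80 and -1.44 (FANCD2 A_23_P345678, K264R, K278R), -1.41 (RAD51B, K278R), and -0.061 (RECQL5, MOAP-1 against RASSF1A). Relative to those medians BARD1 stood at 0.07 and PALB2 at 0.29 in MOAP-1. Without the 17 spots of extreme local background, which lay on 3 arrays, normexp called 1 member in MOAP-1 against vector, 0 in K278R against vector, and 1 in MOAP-1 against RASSF1A. Then RECQL5 read -0.29, -0.76, -0.22, and -0.061 in the order above, FANCD2 A_23_P345678 read -0.63 and -0.21, and RAD51B read -0.15. The cause was not tested. The 3 probes not above background on every array carry these turns, apart from BARD1 and PALB2.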
